A study of Homo sapiens with 4 samples.

Results

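Interleukins and interleukin receptors were examined in THP1 cells in which the leukemia fusion gene MLL-AF9 was silenced by RNA interference. Members were all genes whose symbol on the array consists of IL, a number and an optional suffix of letters and digits, without IL8 and IL3RA, which were not analysed here. The array held 88 such genes, 41 for receptors, 44 for secreted ligands and 3 for other proteins, namely the antagonists IL1RN and IL18BP and the enzyme IL4I1. Of these, 56 had a probe with a deposited weight above 0 on all 4 arrays and were analysed, 28 receptors, 25 ligands and the 3 others, among 17938 analysed genes with a symbol. Each gene was represented by its brightest probe. The rule names genes by symbol and uses measured values only in leaving out probes with a weight of 0 and in taking the brightest probe.

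THP1 is a human line of acute monocytic leukemia in which MLL and AF9 are fused. Cells were transfected on days 0, 3 and 6 with siRNA3 or siRNA4, which target the fusion point of MLL-AF9, or with a non-targeting siRNA, named control siRNA-1 and control siRNA-2. The names siRNA3 and siRNA4 are those of the sample labels, and which of them is siRNA-A and which siRNA-B of the study is not given in the sources used here. RNA was taken on day 8. All 4 treatments shared the same culture, with 10% serum until day 6 and 0.5% serum from then on. Each treatment gave 1 single-colour array of RNA pooled from 5 independent experiments, which leaves 2 knockdown and 2 control arrays for each test. As each siRNA had 1 array, differences between siRNAs and between samples cannot be told apart, and the model is a single cell line. As each array measured a bulk of cells, fewer cells that transcribe a gene and less RNA per cell cannot be told apart. The fusion transcript was not analysed here, so no check of the knockdown at its target is given.

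All arrays sat on 1 slide, siRNA4 and siRNA3 at the first positions and the controls behind them, so that treatment and slide position cannot be told apart. Spots well above background made up 70.0% and 71.2% on the knockdown arrays and 74.3% on either control array. As a check of the cell type, 6 of 8 listed myeloid markers could be analysed, all of them well above background on all 4 arrays, whereas LYZ and FCGR1A were not analysed here. Their summed intensity was 22671 and 26132 on the knockdown arrays and 24193 and 24264 on the control arrays. The sum of 4 T cell markers was 232 to 255 and that of 4 B cell markers 2185 to 2325 over all arrays, with overlapping groups. That of 2 NK cell markers was 93.0 to 101 and that of the 2 analysed epithelial or stromal markers 97.3 to 119, again with overlapping groups. The result of 1 further marker list is not given, so these sums do not cover every lineage listed. All 4 T cell markers and 3 of the 4 B cell markers were also well above background on all 4 arrays. Being well above background therefore does not by itself mark the cell type. Within the myeloid list, CD14, the lipopolysaccharide co-receptor of monocytes, rose by a log2 fold change of 1.05 ± 0.13 (SE, adjusted p = 0.0355 in limma). The integrin gene ITGAX was higher by 0.62 ± 0.18 (adjusted p = 0.424), and the other 4 markers had log2 fold changes of 0.19 (CSF1R), -0.03 (SPI1), -0.11 (CD33) and -0.22 (MPO).

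Interleukins are secreted proteins through which leukocytes and tissue cells instruct each other to grow, differentiate, or switch inflammation on and off. Most act through paired receptor chains, of which one is often shared between several ligands. Receptors of the IL-2, IL-6, IL-10 and IL-12 groups pass the signal on through Janus kinases and STAT transcription factors, while those of the IL-1 group use MYD88, IRAK kinases and TRAF6. Monocytes are a main source of IL-1, IL-10, IL-18 and the IL-12 group, and respond to many of these ligands themselves.

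Of the 56 members 1, the receptor gene IL10RA, passed the threshold upon MLL-AF9 knockdown, an unadjusted p under 0.005 in limma. This is 1.79% of the members, beside 1.33% of all genes. With Benjamini-Hochberg adjustment over 26219 probes, 0 members had an adjusted p under 0.05, beside 0.123% of all genes. At an unadjusted p under 0.05, 7 members were counted, 12.5% of 56, beside 8.0% of all genes. IL10RA and IL13RA1 were higher in knockdown arrays, beside 3.26% of all genes, and IL12RB2, IL20RB, IL2RG, IL1R1 and IL18BP were lower, beside 4.74% of all genes. Of these, 6 were among the 28 receptors, 1 was an antagonist, and 0 were among the 25 ligands, a difference that was not tested. Receptors were also more often well above background on all 4 arrays, 27 of 28 against 14 of 25 ligands. Both knockdown arrays lay above both controls in 8 members (14.3%), beside 15.0% of all genes, and below both in 14 (25.0%), beside 21.2%. Together these are 22 of 56 genes (39.3%), beside 36.2% of all genes, a share near the background. With 2 arrays against 2, the smallest p of an exact permutation test is 0.333, so that p-values rest on the variance that limma shares between probes.

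The median log2 fold change, knockdown minus control, was -0.07 over the receptors, 0.02 over the ligands and -0.02 over all genes. The receptor median was -0.03 with the scaled background-subtracted signal and also without control siRNA-1, near the medians of all probes there (-0.03 and -0.05), and the ligand median turned negative in 5 alternatives. Receptors were higher in 12 and lower in 16 genes, and ligands higher in 15 and lower in 10. The plot of all 56 genes shows that most of their 95% confidence intervals include 0. The median interval reached 0.28 on either side on the log2 scale, and the threshold of p under 0.005 requires a larger difference than an interval that excludes 0. Both control arrays differed from each other by a median of 0.13 in the members and 0.11 in all genes, and both knockdown arrays by 0.15 and 0.14.

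**Figure D1:**
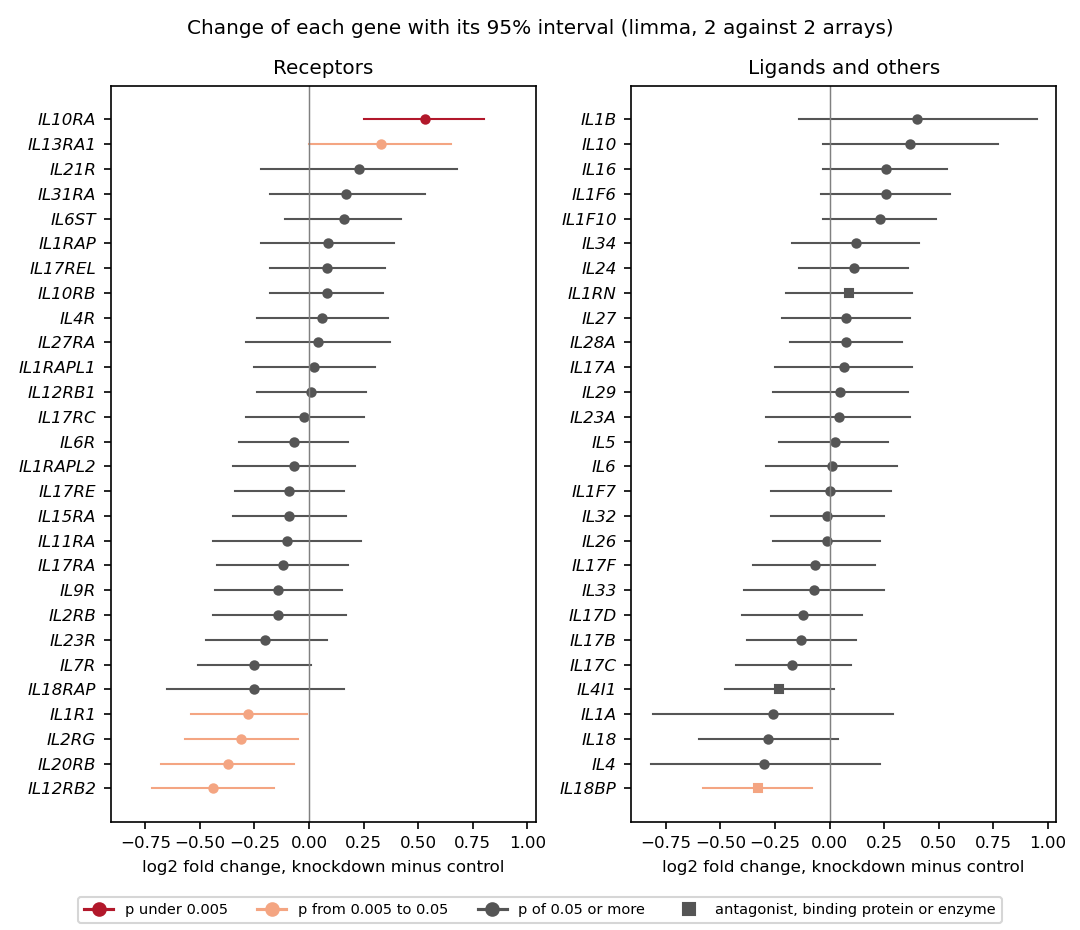
Log2 fold change (knockdown minus control, x axis) with its 95% confidence interval for the 56 analysed interleukin ligand, receptor and other genes. Among the receptors IL10RA lies farthest to the right at 0.53 and IL12RB2 farthest to the left at -0.44, while the interval of every ligand includes 0.

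Among receptors of the IL-10 family, IL10RA encodes the chain that binds IL-10 and gives the receptor its specificity. Log2 intensity of its probe (chr11:117872070-117872129, hg19) was 9.76 on the siRNA3 array and 9.87 on the siRNA4 array, against 9.38 on control siRNA-1 and 9.20 on control siRNA-2. Both knockdown arrays were above both controls, and the gap between the groups exceeded the differences within them. IL10RA rose by 0.53 ± 0.12 (SE) on the log2 scale, 1.44-fold, with a 95% confidence interval of 0.25 to 0.80 (adjusted p = 0.252). The increase was 0.43 to 0.62 with any 1 array left out, but passed the threshold in 0 of these 4 cases. With the background-subtracted signal of the scanner software it was 0.61 scaled and 0.58 unscaled, and did not pass either. Of the analysed myeloid markers, CD14 (1.05), ITGAX (0.62) and CSF1R (0.19) had positive log2 fold changes. Those of SPI1 (-0.03), CD33 (-0.11) and MPO (-0.22) were negative. Whether such changes have a part in the IL10RA difference was not tested.

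IL10RB, the accessory chain that the IL-10 receptor shares with other receptors of the family, did not pass the threshold. Its log2 intensity was 12.33 and 12.22 with siRNA3 and siRNA4, compared with 12.14 and 12.25 on the controls, and the groups overlapped (0.08, 95% confidence interval -0.18 to 0.34). The ligand IL10, which restrains inflammatory cytokine production, read 6.08 on the siRNA3 array, 5.48 on siRNA4, 5.36 on control siRNA-1 and 5.25 on control siRNA-2. Only the siRNA3 and control siRNA-1 values were well above background, and the siRNA3 spot carried a deposited weight of 0.5. The fit gave IL10 a log2 fold change of 0.37 ± 0.17 (adjusted p = 0.659). This value depended on the siRNA3 array, as it was 0.77 without siRNA4 and 0.17 without siRNA3. With the scaled background-subtracted signal it was 0.75.

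IL20RB, the shared chain of the receptors for IL-19, IL-20 and IL-24, was lower upon knockdown without passing the threshold. It read 9.13 with siRNA3 and 9.46 with siRNA4, and 9.63 and 9.71 with control siRNA-1 and control siRNA-2. The groups did not overlap, but the siRNA4 value lay closer to the controls than to siRNA3. The difference was -0.37 ± 0.14 (adjusted p = 0.538), and changed to -0.54 without siRNA4 and -0.21 without siRNA3. IL20RA, its partner chain, was not well above background on any array.

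Within the IL-12 family, IL12RB2 encodes the chain that makes a cell responsive to IL-12 itself. It showed 7.87 and 8.11 on the siRNA3 and siRNA4 arrays, against 8.40 and 8.47 on the controls. Both knockdown arrays were below both controls. The log2 fold change was -0.44 ± 0.12, 0.74-fold (adjusted p = 0.414), and missed the threshold. It passed with normexp background correction and quantile normalization (-0.38), with a filter on dim probes and with an intensity trend in the variance model (both -0.44). The value without siRNA4 was -0.56 and that without siRNA3 -0.32.

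The remaining chains of this family had smaller log2 fold changes. IL12RB1, which pairs with IL12RB2 for IL-12 and with IL23R for IL-23, read 7.75 and 7.81 upon knockdown and 7.81 and 7.73 in the controls, with a log2 fold change of 0.01. IL23R read 6.17 and 6.29 against 6.52 and 6.32 (-0.20 ± 0.12, adjusted p = 0.753). The IL23R value was -0.09 when control siRNA-1 was left out, -0.30 when control siRNA-2 was, and -0.41 and -0.44 with the background-subtracted signal, scaled and unscaled. The ligand chain IL23A read 10.03 with siRNA3 and 10.37 with siRNA4, against 10.05 and 10.26 in the controls, and the groups overlapped. The IL-12 chains IL12A and IL12B were not well above background on any array and were not analysed.

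The promoters of IL10RA and IL12RB2 are shown because these receptor genes had the smallest p-values of the group, with log2 fold changes on opposite sides of 0. Each comprises 250 bases before to 50 bases after the transcription start, from RefSeq on GRCh38.p14, chr11:117989695-117989994 and chr1:67307114-67307413, both on the plus strand. Capitals mark matches to the motifs searched on both strands, which were GAGGAA for the myeloid factor PU.1, TGANTCA for AP-1, TTCNNNGAA for STAT factors and GGGNNTTCC for NF-kB. Matches of different motifs were allowed to overlap.
IL10RA: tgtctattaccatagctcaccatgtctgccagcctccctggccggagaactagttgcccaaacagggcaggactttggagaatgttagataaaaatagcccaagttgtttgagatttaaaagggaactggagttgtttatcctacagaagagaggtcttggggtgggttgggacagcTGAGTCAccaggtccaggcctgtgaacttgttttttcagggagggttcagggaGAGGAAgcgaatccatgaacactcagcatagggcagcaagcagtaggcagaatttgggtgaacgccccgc
IL12RB2: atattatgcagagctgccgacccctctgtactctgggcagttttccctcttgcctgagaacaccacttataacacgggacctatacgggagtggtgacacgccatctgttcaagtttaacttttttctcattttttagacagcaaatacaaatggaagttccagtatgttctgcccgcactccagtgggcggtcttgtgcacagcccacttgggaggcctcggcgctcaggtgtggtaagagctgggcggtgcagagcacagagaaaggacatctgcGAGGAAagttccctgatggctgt
The IL10RA promoter held AP-1 letters starting 73 bases before the start and PU.1 letters starting 20 bases before it. The IL12RB2 window held the PU.1 letters 27 bases after the start. Of 27305 promoters of the same length 27.6% held the PU.1 letters, 7.76% those of AP-1, 7.88% those of STAT and 6.6% those of NF-kB. Among 47 promoters of analysed members that were matched, the shares were 31.9%, 14.9%, 14.9% and 6.38%. These matches are letters in a window and show no binding.

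**Figure D2:**
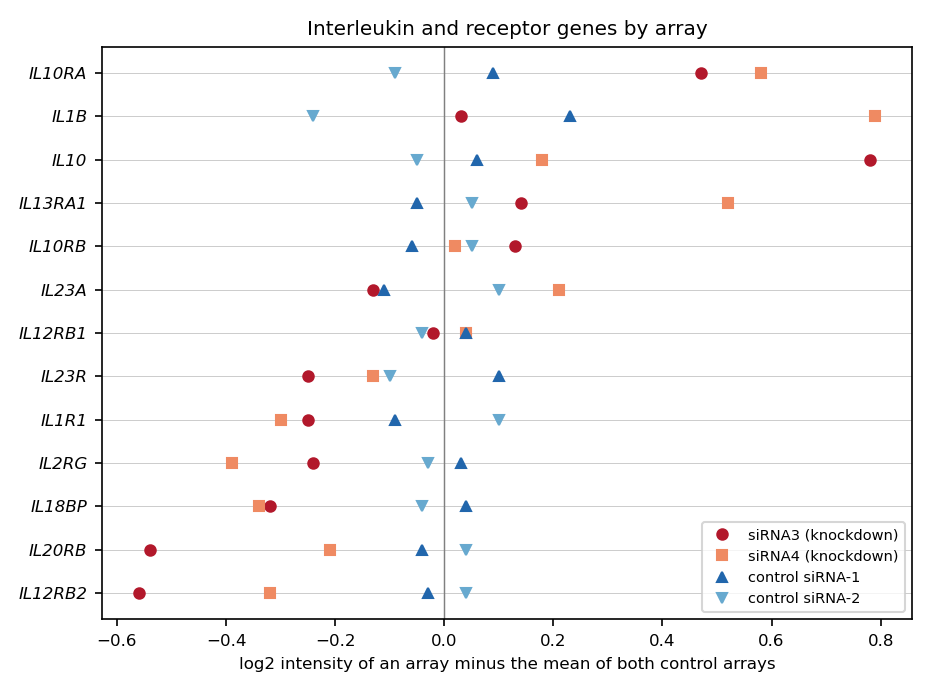
Log2 intensity of each array minus the mean of both control arrays (x axis) for the members with p under 0.05, the partners of IL10RA and IL12RB2, and IL1B. Both knockdown arrays (circles and squares) lie right of both controls (triangles) for IL10RA, IL10 and IL13RA1 and left of them for IL12RB2, IL20RB, IL18BP, IL2RG, IL1R1 and IL23R, whereas IL1B at 9.36 with siRNA4 and 8.60 with siRNA3 spreads around the controls.

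The common gamma chain group comprises receptors for lymphocyte growth factors, together with the IL-4 and IL-13 receptors. IL2RG, the common gamma chain itself, read 7.29 and 7.14 with siRNA3 and siRNA4, compared with 7.56 and 7.50 on the controls. The groups did not overlap, and the log2 fold change was -0.31 ± 0.11 (adjusted p = 0.547). A second probe of IL2RG gave 0.02 with a 95% confidence interval of -0.23 to 0.28.

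IL13RA1, a chain of the receptor for IL-4 and IL-13 on myeloid cells, read 12.48 with siRNA3, 12.86 with siRNA4, and 12.29 and 12.39 with the controls. Both knockdown arrays were above both controls, siRNA4 by more than siRNA3. The log2 fold change of 0.33 ± 0.14 (adjusted p = 0.617) was 0.14 without siRNA4 and 0.51 without siRNA3, and the dimmer probe of the gene gave -0.08. IL4R, which partners both IL13RA1 and IL2RG, read 13.03 and 13.30 against 13.19 and 13.03, with overlapping groups. The 6 members of this group with p of at least 0.05 lay between -0.25 and 0.23. The lower end was IL7R, the IL-7 receptor chain, with 5.63 and 5.73 against 5.86 and 6.00 (-0.25, adjusted p = 0.648), and the upper end IL21R with 8.21 and 7.77 against 7.50 and 8.03, with overlapping groups. With the background-subtracted signal of the scanner software IL7R passed the threshold at -0.69 scaled and -0.72 unscaled. Normexp with quantile normalization gave -0.15 without passing. The IL7R intensities lay near the lowest values well above background, which were 5.04 to 5.39 over the 4 arrays. IL2RA, the alpha chain of the IL-2 receptor, was not well above background on any array.

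Of the IL-1 family receptors, IL1R1 is the signaling receptor for IL-1. Its brightest probe read 6.36 and 6.31 with siRNA3 and siRNA4, compared with 6.52 and 6.71 on the controls (-0.28 ± 0.12, adjusted p = 0.609). A second probe read 5.51 and 5.61 against 5.36 and 5.21, the opposite direction (0.28, adjusted p = 0.606), and was well above background on the siRNA4 array alone. The direction of IL1R1 therefore depended on the probe. The brightest probe gave -0.18 without control siRNA-2 and -0.44 and -0.47 with the scaled and unscaled signal after background subtraction. The other 4 receptors of this family, among them IL1RAP, the accessory chain of the IL-1 receptor, lay between -0.25 and 0.09. The IL-18 receptor chain IL18R1 and the decoy receptor IL1R2 were not well above background on any array.

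Of the 4 analysed receptors of the IL-6 family and the 4 of the IL-17 family, 0 had an unadjusted p under 0.05. Those of the IL-6 family ranged from -0.10 to 0.17 and those of the IL-17 family from -0.12 to 0.08. IL6R, the IL-6 binding chain, read 12.08 and 12.15 upon knockdown and 12.17 and 12.19 in the controls. IL6ST (gp130), the signaling chain of the IL-6 family, read 8.42 and 8.41 against 8.17 and 8.35, with a log2 fold change of 0.16 (95% confidence interval -0.11 to 0.42). The IL6ST value was 0.07 when control siRNA-1 was left out and 0.25 when control siRNA-2 was. IL17RA, the common chain of the IL-17 receptors, read 14.14 and 14.45 against 14.39 and 14.43, with overlapping groups.

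Of the 25 analysed ligands 0 passed the threshold, and 0 had an unadjusted p under 0.05. Of these genes 14 were well above background on all 4 arrays, 10 on some and 1, IL6, on none by its brightest probe. IL1B, a main inflammatory cytokine of monocytes, varied widely within both groups (SD 0.53 between knockdown arrays and 0.33 between controls). Its 10 identical spots averaged 8.60 with siRNA3, 9.36 with siRNA4, 8.80 with control siRNA-1 and 8.33 with control siRNA-2. The siRNA4 array was highest and the siRNA3 array fell between the controls. The resulting log2 fold change was 0.40 ± 0.24 (adjusted p = 0.746), and was 0.04 without siRNA4 and 0.79 without siRNA3.

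IL18, a cytokine of the same family that is matured by caspase-1, was printed on 10 spots as well. It read 7.85 and 8.15 upon knockdown and 8.17 and 8.40 in the controls, which do not overlap by a narrow margin (-0.28 ± 0.14, adjusted p = 0.686). The IL18 value was -0.13 without siRNA3, -0.17 without control siRNA-2 and -0.43 without siRNA4. IL1A read 5.91 on the control siRNA-2 array and 4.91 to 5.09 on the other three, where it was not well above background. Its control siRNA-2 spot carried a deposited weight of 0.5. The 5 ligands of the IL-17 family lay between -0.17 and 0.06. The lower end was IL17C, which gave -0.46 and -0.49 with the scaled and unscaled signal after background subtraction and -0.08 when control siRNA-2 was left out, without passing the threshold. The ligands of the IL-10 family other than IL10 itself differed by no more than 0.11 in either direction.

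IL16, a chemoattractant for CD4-bearing cells, was the only member with several probes that had one past the threshold. The brightest probe read 7.99 with siRNA3, 8.26 with siRNA4, and 7.85 and 7.89 with the controls (0.26 ± 0.13, adjusted p = 0.677). This value was 0.12 without siRNA4 and 0.39 without siRNA3. The other probes gave 0.44 ± 0.13 (adjusted p = 0.448) and 0.49 ± 0.13 (adjusted p = 0.359), the latter from 6.69 on both knockdown arrays against 6.04 and 6.34. All 3 probes were higher on both knockdown arrays than on both controls.

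Of the 3 remaining members, IL18BP encodes the secreted inhibitor that captures IL-18. It read 6.46 and 6.44 with siRNA3 and siRNA4, compared with 6.82 and 6.74 on the controls. Both knockdown arrays were below both controls, and values within either group differed by less than 0.1. The log2 fold change was -0.33 ± 0.11, 0.80-fold (adjusted p = 0.501), and -0.50 with the unscaled background-subtracted signal. IL4I1, an amino acid oxidase secreted by myeloid cells, read 10.33 and 10.38 against 10.62 and 10.55 (-0.23 ± 0.11, adjusted p = 0.659). IL1RN, the IL-1 receptor antagonist, read 13.12 and 13.33 against 13.24 and 13.03, with overlapping groups.

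Several probes were available for 13 members, 76 probes in all for the 56 genes. In 4 of the 13 genes all probes had the same sign, and in 9 signs differed. The 6 probes of IL6ST, for example, lay between -0.17 and 0.16. IL1R1, IL2RG and IL13RA1 are the genes with p under 0.05 in which another probe did not repeat the direction, whereas IL10RA, IL12RB2, IL20RB and IL18BP were measured by a single probe each.

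**Figure D3:**
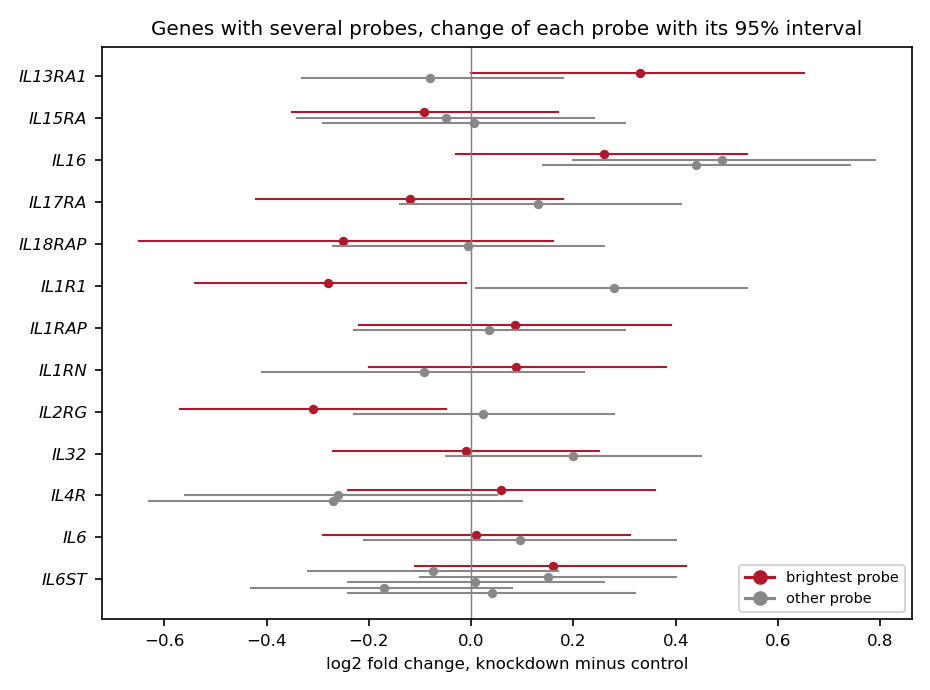
Log2 fold change (knockdown minus control, x axis) of every probe of the 13 members with more than 1 probe. The 3 probes of IL16 lie together between 0.26 and 0.49, while the probes of IL1R1 lie on opposite sides of 0 at -0.28 and 0.28.

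Of the 32 members not analysed, 13 receptors and 19 ligands, all had a deposited weight of 0 and none had a probe well above background on any array. They include the lymphocyte-derived ligands IL2, IL3, IL9, IL13, IL21 and IL22, the ligands IL7 and IL15, and the receptor genes IL5RA, IL22RA1 and IL17RB. No level or direction was derived for these genes.

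To follow the signal below the receptors, 27 genes for shared chains, kinases, transcription factors and adaptors of interleukin signaling were listed, of which 25 could be analysed. Of these 0 were called, and 2 had a p under 0.05, 8.0% as in all genes. TYK2, a Janus kinase at the IL-10 and IL-12 receptors, read 8.82 and 8.81 on the siRNA3 and siRNA4 arrays against 8.52 and 8.48 on the controls (0.31 ± 0.11, adjusted p = 0.52). IRAK2, a kinase of the IL-1 receptor complex, read 8.38 on both knockdown arrays against 7.89 and 8.13 (0.37 ± 0.12, adjusted p = 0.499). In both genes the knockdown arrays were nearly equal and above both controls. The log2 fold change of largest size in the list was negative, that of OSMR among the shared chains and partners. OSMR read 5.67 and 5.64 with siRNA3 and siRNA4 against 6.40 and 5.75 on the controls (-0.42 ± 0.19, adjusted p = 0.635).

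Over the whole list 19 genes had a positive and 6 a negative log2 fold change, with a median of 0.07 beside -0.02 over all genes. The siRNA4 array was the highest of the 4 in 17 of the 25 genes (68.0%), beside 33.1% of all genes, and the siRNA3 array in 3. Kinases and transcription factors, namely the Janus kinases and STAT factors, were positive in 9 of 10 analysed genes with a median of 0.10. The adaptors and kinases of the IL-1 and IL-17 receptors were positive in 7 of 9. The shared receptor chains and partners were positive in 3 of 6.

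**Figure D4:**
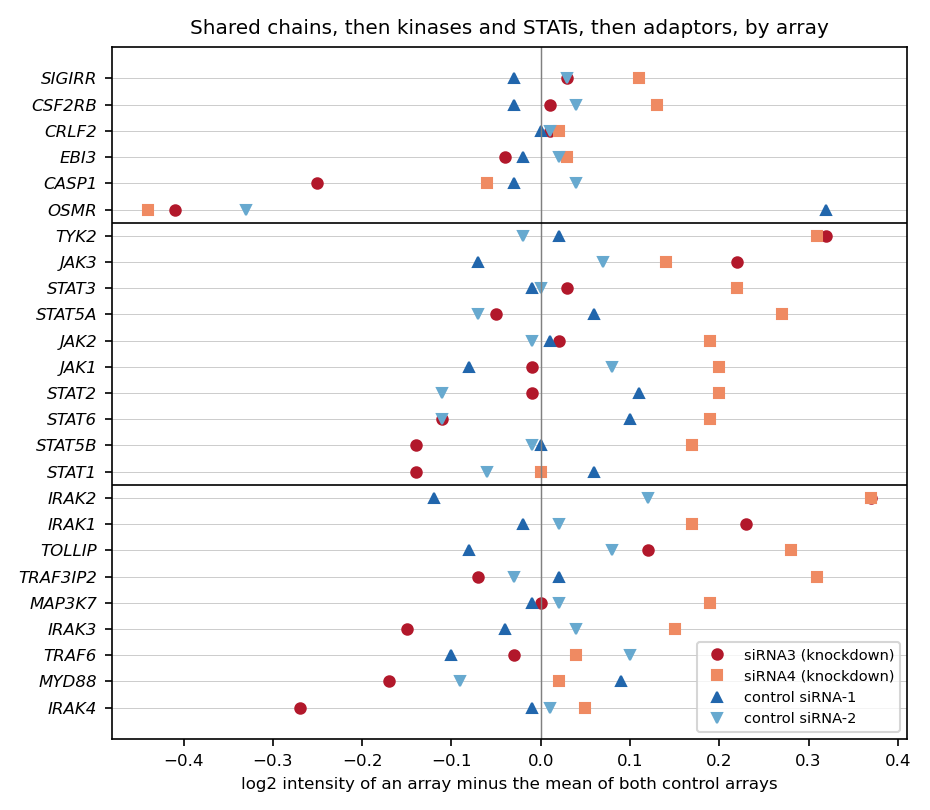
Log2 intensity of each array minus the mean of both control arrays (x axis) for the 25 analysed genes of interleukin signaling. Both knockdown arrays of TYK2 and IRAK2 lie to the right of both controls, and the siRNA4 array (squares) is the rightmost in 17 of 25 genes.

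IL10RA kept its direction in all 13 alternatives for normalization, background correction, weights and left-out arrays and passed the threshold in 7 of them. Only another normalization or background correction could have turned its direction. The estimate stayed 0.53 without weights, with the dim-probe filter, with the intensity trend and with single spots. Leaving out 1 array could not turn it, as both knockdown arrays lay above both controls. IL12RB2 passed in 3, IL7R in 2 and IRAK2 in 1. The plot across settings shows the values of the 7 members with p under 0.05, IL1B and IL7R under each alternative.

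**Figure D5:**
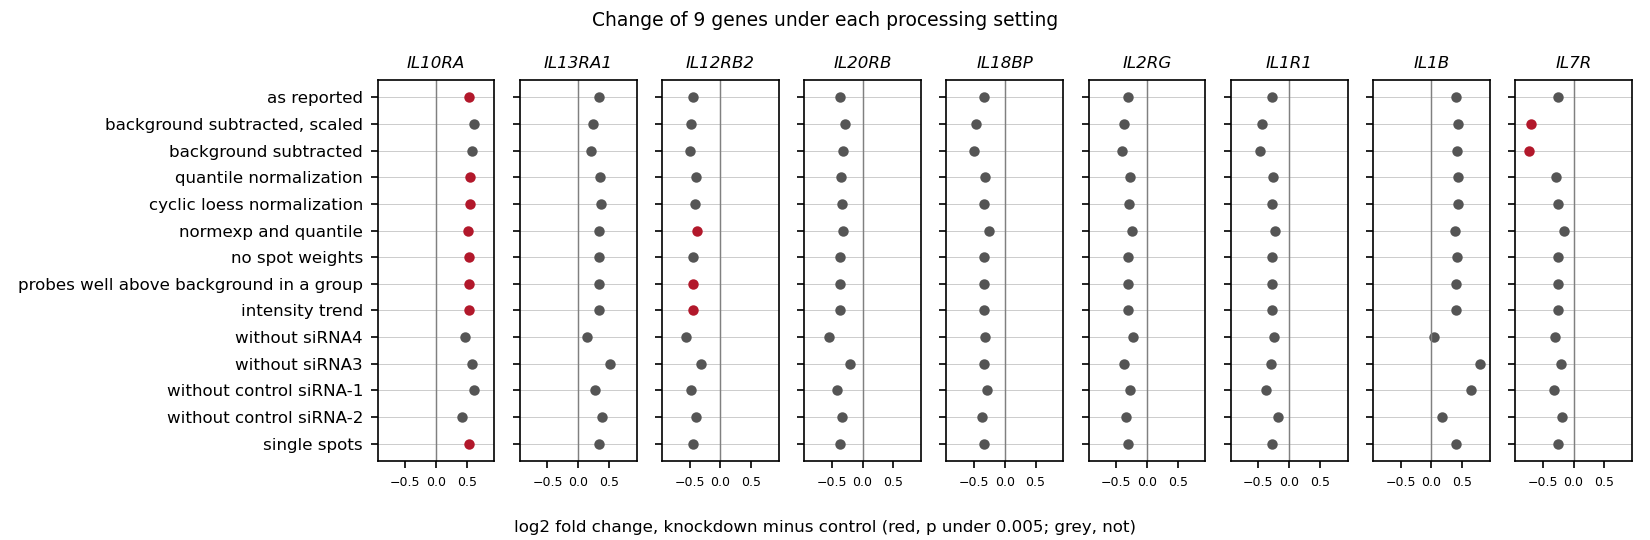
Log2 fold change (knockdown minus control, x axes) of 9 genes as reported and under each processing setting (top to bottom), red where p was under 0.005. IL10RA stays between 0.43 and 0.62 in all settings, whereas IL1B ranges from 0.04 without siRNA4 to 0.79 without siRNA3.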

How the data were processed

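The authors scanned single-colour Agilent arrays with Feature Extraction 10.5.1.1. They deposited a median intensity per spot, without background correction or normalization between arrays, and a weight score whose derivation is not given in the sources used here. Log2 of the deposited intensity, averaged over identical spots, was modelled in limma 3.58.1 (R 4.3.3) with these weights and no covariates. Of 43118 spots other than controls, 33323 with a weight above 0 on all arrays were used, giving 26219 probes. The threshold for single genes was an unadjusted p under 0.005. Adjusted p are Benjamini-Hochberg values over all probes. All p are two-sided. The pipeline was tested on simulated data. A shift of a whole array enters each value. The number of arrays limits the precision, and p-values measure the spread between these 4 pools.

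Alternatives were quantile and cyclic loess normalization, normexp with quantile normalization, the background-subtracted signal of the scanner software, scaled to its 75th percentile or unscaled, an intensity trend, no weights, single spots, a dim-probe filter, the probe of smallest p, other thresholds, and each array left out.

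Members, gene lists and tests were chosen with earlier results of these data known. Named genes are members called or with p under 0.05, their receptor partners and ligands in the IL-10 and IL-12 groups, members well above background on all arrays with an absolute log2 fold change of at least 0.3, and signaling genes with p under 0.05. IL16, IL18, IL1RN, IL4R, IL6R, IL17RA, IL6ST, IL7R, IL4I1, IL1A, IL17C, IL21R, OSMR, TRAF6 and IRAK3 were named after their values were seen. Gene names are those of the array, and 55 of 56 members were matched by accession to RefSeq, with another current symbol in 4. Probe positions are those of the scanner files (hg19). Whether a probe lies in an exon or untranslated region was not analysed here. The result of 1 marker list is not reported here.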

Additional observations from a re-analysis of the deposited data

How the results depend on the processing

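No paired analysis was possible because the knockdown and control siRNAs share no replicate numbers. Of 403 values of 27 single genes under the alternatives, 367 kept direction and side of the threshold. The call was lost in 7, all of IL10RA, and gained in 14, and 15 values changed direction, while 19 genes kept theirs throughout. These values include an adjusted and an unadjusted p under 0.05, the dim-probe filter and the intensity trend. All of these reuse the reported estimates, so direction could not change there, and the looser threshold gained calls through its cutoff alone. The number of members called, 1 as reported, was 2 with normexp and quantile normalization, with a filter on dim probes, with an intensity trend and with the probe of smallest p per gene, 0 at an adjusted p under 0.05, 7 at an unadjusted p under 0.05, and 0 with any 1 array left out. For receptors it was 2 with normexp and quantile normalization, the filter on dim probes and the trend, 0 at the adjusted p, 6 at the unadjusted p under 0.05, and 0 with any array left out. For ligands, 0 as reported, it was 1 with the probe of smallest p, an IL16 probe. For signaling genes, 0 as reported, it was 1 with normexp and quantile normalization, 2 at the unadjusted p under 0.05, and 0 to 1 with an array left out, 1 being without control siRNA-2. The median log2 fold change of the ligands, 0.02 as reported, was -0.026 with the background-subtracted signal scaled and -0.057 with it unscaled, -0.007 with quantile normalization, -0.011 with normexp and quantile normalization and -0.008 without control siRNA-1. That of the receptors, -0.07 as reported, ranged from -0.084 to -0.027. With the background-subtracted signal IL12RB1 turned to -0.018 scaled and -0.048 unscaled, and IL6R to 0.04 and 0.0095. The members called under that signal did not include IL10RA, whose call was lost, and the count of 1 was IL7R. Direction also turned in 7 genes when an array was left out, among them IL1A (-0.26 as reported) and IL21R (0.23 as reported). IL12RB1 then ranged from -0.033 (without control siRNA-2) to 0.046, with -0.019 without siRNA4, IL23A from -0.13 (without siRNA4) to 0.22, with -0.064 without control siRNA-1, and IL1RN from -0.016 (without control siRNA-2) to 0.19, with -0.012 without siRNA4. IL4R ranged from -0.077 (without siRNA4) to 0.19, with -0.024 without control siRNA-2, IL17RA from -0.27 to 0.037 (without siRNA3), IL1A from -0.91 to 0.066 (without control siRNA-2), and IL21R from -0.038 (without control siRNA-1) to 0.49. The cause was not tested, except that leaving out an array leaves a lone array that is assumed to vary like the others. Signal over background limits IL10, IL1A, other dim ligands and dim receptors such as IL7R.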
